A study of Mus musculus with 9 samples.

Results

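Col1a2, the gene of the α2 chain of type I collagen, was described in the bone marrow (BM) of each of 9 mice. It is 1 of the 53172 gene names, here called rows, of the count table, and it was chosen for how its level varied over these 9 mice, so its level and the rows that moved with it are given as a description, with no test. BM was read by RNA-seq in 3 mice that received bone marrow (BMT), 3 mice that received cells digested from costal cartilage (CDSCs, which the paper calls isoCDSCs-T) and 3 healthy mice of matched age (Health). Both kinds of recipient were wild-type CD45.2 C57BL/6J mice of 16 weeks, were irradiated with 9.5 Gy and received 500000 cells through a vein, and their BM was taken 2 weeks later. The donor cells carried CD45.1 or ZsGreen, a fluorescent reporter. BMT donors were neonatal or adult, whereas the cartilage of the CDSCs group came from neonatal mice. The cartilage digest was transplanted without sorting, and the paper describes it as mostly CD45-CD51+ cells with few haematopoietic progenitors. The labels describe 1 library of all BM cells per mouse, whereas by the methods of the study the marrow was split by CD45, positive and negative cells entered RNA-seq in like amounts, and their data were brought to like depth and merged. Which of these descriptions holds for the deposited columns was not tested.

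Type I collagen is the main protein of the bone matrix and of most connective tissue. Its triple helix is built from the products of Col1a1 and Col1a2, which are wound together in the endoplasmic reticulum, secreted with propeptides at both ends, trimmed, and laid down as cross-linked fibrils. In marrow it is made mainly by osteoblasts, fibroblasts and stromal cells, and little by blood cells. In bulk RNA, more cells that make a transcript and more transcript in each cell cannot be told apart.

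Col1a2 lies on the forward strand of chromosome 6 (GRCm38, GENCODE M21, chr6:4504814-4541544) and spans 36731 bp with 8 annotated transcripts. Its exons together cover 12426 bp, and the ratio of counts to TPM in the deposited tables gave the same length of 12426 bp, so the TPM of Col1a2 were computed over the union of all 8 transcripts and not over the 5348 nt of the main annotated transcript. The gene overlaps 1 other annotated gene, Gm43921, whose row held 30 counts over all mice. A feature of collagen helices, those of fibrillar chains included, is a glycine in each triplet of residues, the only residue small enough for the core. In the main transcript of Col1a2, which has 1372 codons, this repeat starts at codon 97 and runs without a break for 339 triplets. In that of Col1a1, with 1453 codons, it starts at codon 168 and runs for 338 triplets. The aligned stretches below show the repeat in the partner chains of the type I helix. They are printed 5′ to 3′ from the GENCODE M21 transcripts with glycine codons in capitals, and come from exons 6 to 8 of 52 in Col1a2 (chr6:4512406-4515516, forward strand) and exons 6 to 8 of 51 in Col1a1 (chr11:94939451-94939939, forward strand).
Col1a2: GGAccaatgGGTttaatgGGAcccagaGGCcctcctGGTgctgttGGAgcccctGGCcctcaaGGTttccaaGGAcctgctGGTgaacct
Col1a1: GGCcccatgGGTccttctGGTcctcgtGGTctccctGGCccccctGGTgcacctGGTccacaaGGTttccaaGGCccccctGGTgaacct
All 10 glycine codons stand at the same places in both stretches. Of the 90 bases 63 were identical, and of the 30 codons 11 were, so that neither stretch is a copy of the other.

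Col1a2 varied more over the mice than any other well-measured row. Its counts were 4543, 5969 and 17069 in BMT mice 1 to 3. They were 140263, 35164 and 8889 in CDSCs mice 1 to 3. They were 1657, 24991 and 1285 in Health mice 1 to 3. As CPM (counts scaled to a common library size with TMM), the BMT mice had 491.8, 616 and 1629, the CDSCs mice 13692, 3565 and 1011, and the Health mice 197.2, 2620 and 135.4. CDSCs mouse 1 stood highest and Health mice 1 and 3 lowest, while Health mouse 2 lay above all 3 BMT mice and above CDSCs mouse 3. From the highest to the lowest the order was CDSCs mouse 1, CDSCs mouse 2, Health mouse 2, BMT mouse 3, CDSCs mouse 3, BMT mouse 2, BMT mouse 1, Health mouse 1 and Health mouse 3. The widest step between neighbours in this order was the 3.84-fold step from CDSCs mouse 1 to CDSCs mouse 2, and the narrowest was 1.25-fold, from BMT mouse 2 to BMT mouse 1.

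**Figure D1:**
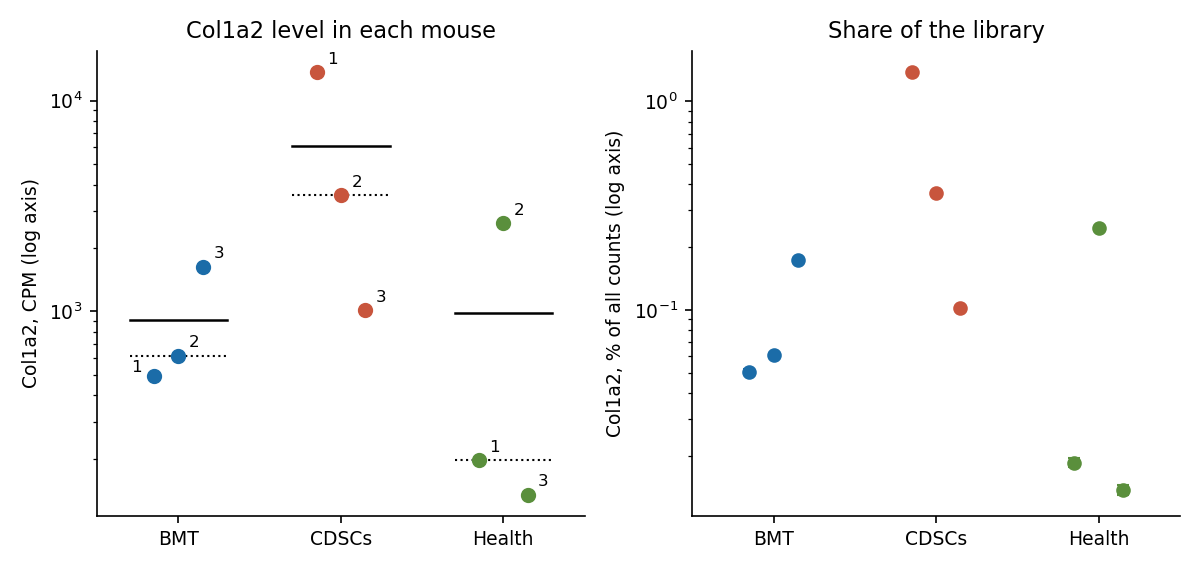
Col1a2 in each mouse as CPM (left) and as percent of all counts in the library (right), both on log axes. Points are mice, with the mouse number beside them on the left, solid lines are group means, dotted lines group medians, and the 95% Wilson intervals on the right are mostly smaller than the points. The 3 groups overlap, with CDSCs mouse 1 at 13692 CPM and Health mouse 3 at 135.4 CPM at the ends.

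As a share of all counts, Col1a2 held 0.0506%, 0.0608% and 0.173% of the libraries of BMT mice 1 to 3. It held 1.38% in CDSCs mouse 1 (95% Wilson interval, 1.37% to 1.39%), 0.363% in CDSCs mouse 2 and 0.102% in CDSCs mouse 3. It held 0.0185% in Health mouse 1, 0.247% in Health mouse 2 and 0.0138% in Health mouse 3 (95% Wilson interval, 0.0130% to 0.0145%). The intervals of neighbouring mice in the order did not overlap, although these intervals cover counting error only and not the spread between animals. In CDSCs mouse 1 Col1a2 was the row with the 4th most counts, and in Health mouse 3 it was in place 1498. The deposited TPM gave the same order of mice, from 2271 in CDSCs mouse 1 down to 24.04 in Health mouse 3.

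The spread within each group was wide. The highest mouse exceeded the lowest 3.31-fold in BMT, 13.5-fold in CDSCs and 19.4-fold in Health. Over the 5723 rows with at least 100 counts in every mouse, the median of this ratio was 1.18 in BMT, 1.36 in CDSCs and 1.24 in Health. Ordered by this ratio, Col1a2 took place 13 in BMT, place 6 in CDSCs and place 1 in Health. Over all 9 mice its ratio was 101.1, the largest of these rows, whose median was 1.70. The rows named Itga3, with a ratio of 97.5, and G3bp1, with 80.7, came next.

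Group means were therefore set by single mice. The mean was 912 ± 624 CPM in BMT, 6089 ± 6706 CPM in CDSCs and 984 ± 1417 CPM in Health (SD, n = 3 mice each). The log2 ratio of means was 2.74 for CDSCs over BMT, 2.63 for CDSCs over Health and -0.11 for BMT over Health. In CDSCs and Health the SD was larger than the mean, and each difference between group means was smaller than the SD of at least 1 of the groups compared. Without CDSCs mouse 1, the log2 ratio was 1.33 for CDSCs over BMT and 1.22 for CDSCs over Health. Without Health mouse 2, it was 5.19 for CDSCs over Health and 2.46 for BMT over Health. Without BMT mouse 3, it was 3.46 for CDSCs over BMT and -0.83 for BMT over Health. Medians of the 3 mice gave 2.53, 4.18 and 1.64 for the same 3 comparisons, so that BMT and Health were close in their means and apart in their medians of 616 and 197.2 CPM.

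Total counts lay between 8741155 and 10181289. With deposited TPM, DESeq2 size factors or plain library size in place of TMM, the log2 ratio of CDSCs over BMT was between 2.65 and 2.75. The labels give no batch, litter or sequencing date. The same number in different groups marks different animals.

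The names of some rows went against their counts, which bears on every row named beside Col1a2. The row of Col1a1, whose product shares the helix with that of Col1a2, held 0 to 21 counts per mouse, and in CDSCs mouse 1, with 140263 counts for Col1a2, it held 0. The cytoskeletal gene Actb held 20 to 37 counts, 42 of 76 ribosomal protein rows averaged fewer than 10 counts, and the largest row of the table was the olfactory receptor Olfr648 with a mean of 350395. Several rows with many counts lay beyond a gene known for high levels in bone or blood whose own row was nearly empty. In GRCm38 the start of Itga3 lies 108 kb beyond that of Col1a1 on chromosome 11, G3bp1 lies 75 kb beyond Sparc, Gm34280 lies 349 kb beyond Serpinh1 and Olfr648 lies 351 kb beyond Hbb-bs on chromosome 7, and Ikbkg lies 910 kb beyond Bgn on the X chromosome. The counts under the first names were 0 to 21 for Col1a1, 0 to 1 for Sparc, 1 to 10 for Serpinh1, 0 for Hbb-bs and 0 to 1 for Bgn. These pairs were chosen after their values were seen. Rows are therefore given by their names in the table, and which gene the reads of a row came from was not tested, because the reads were not used here.

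At the start of chromosome 6, where Col1a2 lies, the counts of some rows were near what is known of the genes named. Whether names hold better here than elsewhere was not tested. Of 36 other protein-coding rows from 1133 kb before to 7403 kb beyond the start of Col1a2, 18 had a mean of at least 100 counts and 11 a mean under 10. Examples were picked after their values were seen. Housekeeping genes were among the first, with 2762 to 3434 counts for Ndufa4, a subunit of cytochrome oxidase, and 2326 to 4972 for Sem1, a proteasome subunit. Genes of nerve and eye were among the second, with 0 counts in all mice for Gngt1, a transducin subunit of rods, and for Tac1, a neuropeptide precursor. The closest row before Col1a2, Bet1, a vesicle transport gene 428 kb away, held 488 to 718 counts. Gng11, a G protein subunit, held 19 to 69 counts and Gngt1 none. The closest row beyond it, Casd1, an enzyme that acetylates sialic acid, lies 96 kb away and held 798 to 1449 counts, and its CPM were lowest in the 3 CDSCs mice (77.9, 85.6 and 109.1), just under the 113.7 of Health mouse 1. Sgce held 9 to 63 counts and Peg10 5 to 67, and both were highest in CDSCs mouse 1.

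Neighbours with many counts had a spread near that of other well-measured rows. Among the 18 neighbouring rows with a mean of at least 100 counts, the highest mouse exceeded the lowest by 1.25-fold to 7.08-fold (median 1.78). The median was 1.70 over all rows with at least 100 counts in every mouse. Col1a2, at 101.1-fold, was chosen for its variation, so that it exceeds its neighbours is no result. Correlations of the 18 neighbours with Col1a2 over the 9 mice ran from -0.74 to 0.73, and 0 of them reached 0.9. Some neighbours with fewer counts varied more and were also highest in CDSCs mouse 1, such as Hepacam2, an adhesion protein, with 14 to 308 counts (20.4-fold in CPM, r = 0.798) and Pdk4, a kinase that turns off pyruvate oxidation, with 1 to 119 counts (r = 0.77), both picked after their values were seen. These correlations share libraries and depth and carry no p. In edgeR's quasi-likelihood test across all rows, 0 of 26 neighbours tested passed an adjusted p of 0.05 in CDSCs against BMT, where 1.03% of the 12572 rows tested passed. At an unadjusted p under 0.05 there were 6 higher and 2 lower, beside 9.82% and 8.81% of all rows, and DESeq2 called 2 higher (Col28a1 and Sgce) and 1 lower (Casd1), beside 2.94% and 2.68% of all rows. Col28a1 (16, 39 and 12 counts in CDSCs mice and 0 to 6 in the others) met the count minimum only through CDSCs mice, so its call is not read as a result. In CDSCs against Health 4 were higher and 1 lower (19.2% of 26), or 3 and 1 without Col28a1 (16% of 25), where 17% of all rows passed, and in BMT against Health 1 was higher, where 2.44% passed. The largest change, picked out for its size, was that of Pdk4, with 119, 48 and 66 counts in CDSCs mice and 1, 9 and 2 in Health mice (log2 fold change 4.17, standard error 0.59, edgeR adjusted p = 0.00191). Casd1 was lower in CDSCs than in Health (log2 fold change -0.54, standard error 0.16, edgeR adjusted p = 0.0466).

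**Figure D2:**
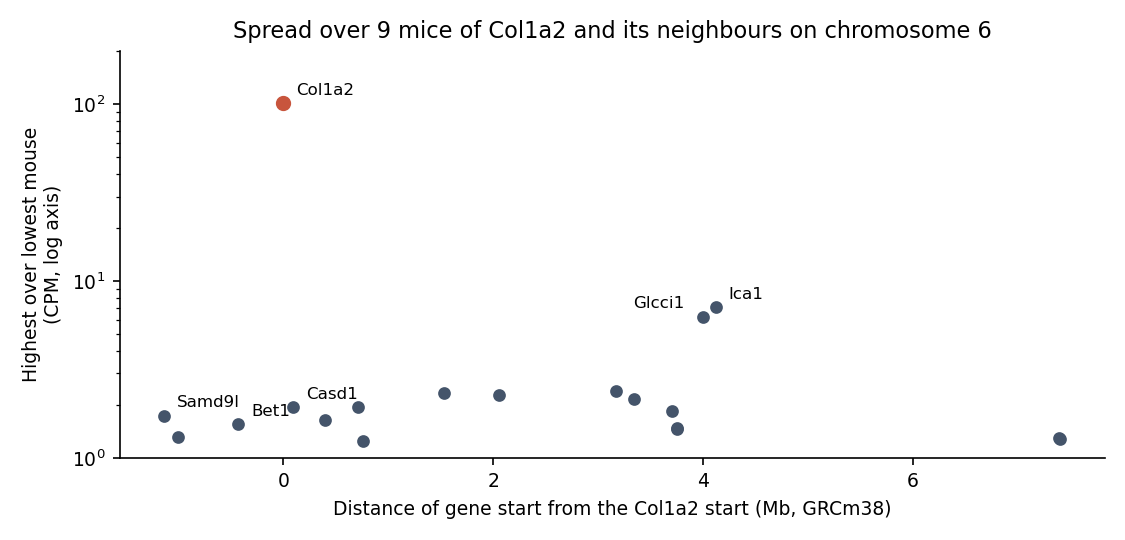
Ratio of the highest to the lowest mouse in CPM (log axis) for Col1a2, in red, and for the 18 neighbouring protein-coding rows with a mean of at least 100 counts, by the distance of their start from that of Col1a2. Neighbours lie between 1.25 and 7.08 and Col1a2, which was chosen for its variation, at 101.1.

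Few rows rose and fell with Col1a2. Likeness was measured as Pearson's r of log2(CPM + 1) over the 9 mice, among the rows with at least 100 counts in every mouse. Of 5722 rows, 8 had an r of at least 0.9 (0.14%) and 21 had an r of at most -0.9 (0.367%), and the median r was -0.07. The rows were chosen by these values, and the mice of each point share library and depth. The row at the edge of the first count was Hip1r, with an r of 0.9, and the next below was Arhgap12, with r = 0.893. The 10th row was Scarf1, with r = 0.891, and the 11th was Nipal3, with r = 0.868.

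**Figure D3:**
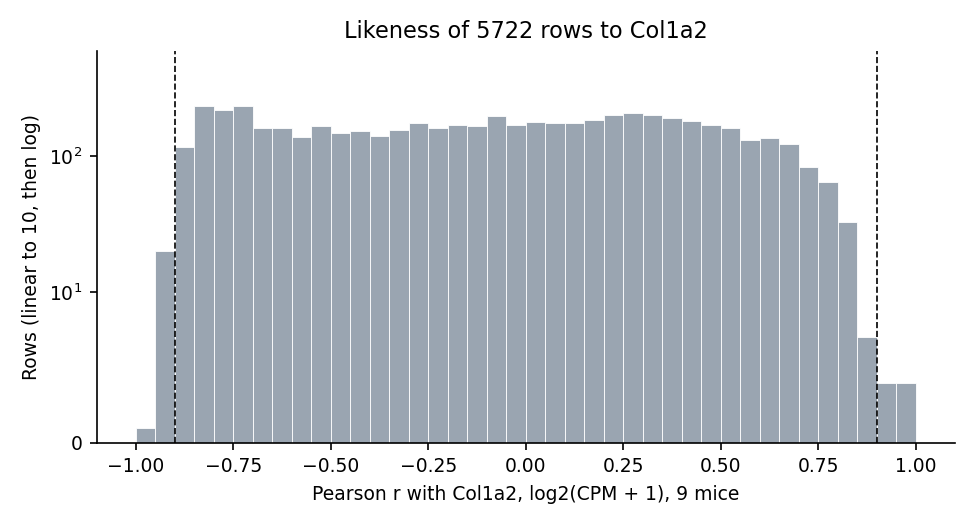
Number of rows by their Pearson r with Col1a2, over 5722 rows with at least 100 counts in each of 9 mice. The vertical axis is linear to 10 and logarithmic above, and dashed lines stand at -0.9 and 0.9, past which lie 21 and 8 rows.

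A pair of rows followed Col1a2 almost in proportion. Itga3, named for an integrin chain that binds laminin (chr11:95044474-95076801, GRCm38), held 3033, 4438 and 11412 counts in BMT mice, 103389, 26219 and 5239 in CDSCs mice, and 1162, 18783 and 982 in Health mice. All 9 mice stood in the same order as for Col1a2. Its r was 0.998 (Spearman rho 1, n = 9), and it rose by 1.00 log2 unit for each log2 unit of Col1a2. Per 100 CPM of Col1a2 it had 58.9 CPM in CDSCs mouse 3, its lowest mouse, and 76.4 CPM in Health mouse 3, its highest, while Col1a2 itself changed 101.1-fold.

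G3bp1, named for an RNA-binding protein of stress granules (chr11:55469685-55504838), held 909, 1160 and 3244 counts in BMT mice, 20375, 5821 and 1909 in CDSCs mice, and 298, 3964 and 234 in Health mice. The order of mice was again that of Col1a2. Its r was 0.998 (rho 1), its slope 0.94, and its ratio ran from 14.5 CPM per 100 CPM of Col1a2 in CDSCs mouse 1 to 21.5 in CDSCs mouse 3. These ratios are of CPM, not per length, and compare a row with itself over mice.

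Other rows followed with a shallower slope. Cd320, named for the receptor of transcobalamin, ran from 142 counts in Health mouse 3 to 1733 in CDSCs mouse 1, with r = 0.963, rho of 1 and a slope of 0.50. Glra1, named for a glycine receptor chain known from neurons, ran from 1278 counts in Health mouse 3, the lowest mouse in CPM, to 8646 in CDSCs mouse 1 (r = 0.951, slope 0.36). Its start lies 120 kb beyond Sparc, on the far side of G3bp1. Ikbkg, named for the regulatory subunit of the NF-κB kinase, ran from 102 counts in Health mouse 3 to 3595 in CDSCs mouse 1 (r = 0.927, slope 0.65), and departed from Col1a2 in CDSCs mouse 3, where it had 131.4 CPM, above the 116.4 of CDSCs mouse 2. Zbtb5, Mtss1, Hip1r and Arhgap12 had slopes between 0.08 and 0.18, so that Mtss1, a membrane-bending protein, changed 2.65-fold and Zbtb5, a zinc finger protein, 1.58-fold between their highest and lowest mouse. Scarf1, named for a scavenger receptor of endothelium, had a slope of 0.41.

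**Figure D4:**
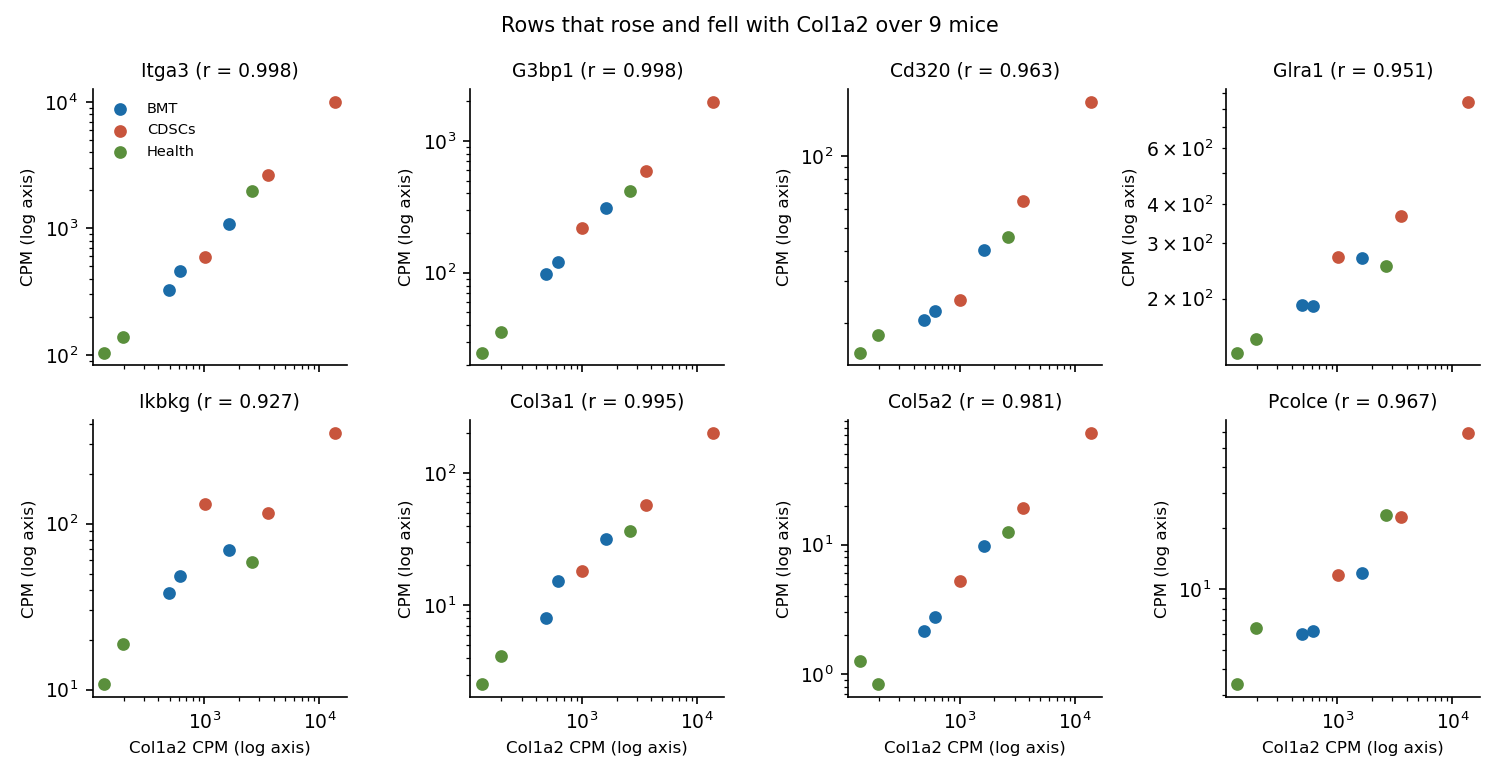
CPM of 8 rows against CPM of Col1a2 in the 9 mice, on log axes, coloured by group, with Pearson's r of log2(CPM + 1). Itga3, G3bp1 and Col3a1 keep the order of Col1a2 in all mice (rho 1), and Ikbkg departs from it in CDSCs mouse 3.

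The likeness of the first rows did not rest on the group means. After each group's mean was subtracted, r was 0.998 for Itga3, 0.998 for G3bp1, 0.948 for Cd320 and 0.922 for Glra1. Without CDSCs mouse 1 and Health mouse 3, the mice farthest from the median of Col1a2, r was 0.997, 0.995, 0.952 and 0.934 for these rows, but 0.792 for Ikbkg, 0.757 for Zbtb5 and 0.710 for Hip1r. The number of rows past either line changed with the mice. Without Health mouse 2 there were 57 rows with an r of at least 0.9 and 237 with an r of at most -0.9, and without Health mouse 1 there were 19 and 109. Without CDSCs mouse 1, 9 and 2 rows passed. The second count was also 34 without BMT mouse 2, 50 without CDSCs mouse 3 and 12 without Health mouse 3.

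Beneath the limit of 100 counts in every mouse, some rows of matrix genes moved in the same way and others did not. Of 15 such rows in the collagen lists described below, with a mean of at least 20 counts, 3 had an r of at least 0.9 and 9 an r above 0, with a range from -0.62 for Itga2 to 0.995 for Col3a1 and a median of 0.69. Over all 4396 rows of the table in this count range, 0.409% had an r of at least 0.9 and 52.8% an r above 0, and the median was 0.04. Col24a1, another fibrillar chain, had an r of -0.025 and Plod2, a lysyl hydroxylase, one of -0.36. The 3 rows past 0.9, and Gm34280, are given here and were picked out after their values were seen. Col3a1, the chain of type III collagen, which forms mixed fibrils with type I, held 74, 147 and 334 counts in BMT mice, 2052, 566 and 160 in CDSCs mice, and 35, 350 and 24 in Health mice (r = 0.995, rho 1, slope 0.86). It kept the order of Col1a2 in all 9 mice, with 1.40 to 2.46 CPM per 100 CPM of Col1a2. Col5a2, a chain of type V collagen, which helps to start fibrils, held 7 to 119 counts in Health mice, 20 to 103 in BMT mice and 46 to 746 in CDSCs mice (r = 0.981). Pcolce, the enhancer of the enzyme that cuts the C-propeptide, held 32 to 221 counts in Health mice, 55 to 126 in BMT mice and 103 to 605 in CDSCs mice (r = 0.967). Gm34280 ran from 15 to 568 counts (r = 0.984). At the low end these rows rest on few counts, and r there depends on the added 1.

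Positions of the 10 rows with the highest r were set beside the genes of the collagen, osteoblast, fibroblast and chondrocyte lists used here. Within 1 Mb before their start, 4 of the 10 rows had a gene of these lists, namely Col1a1, Sparc for a pair of rows, and Bgn, against 9.77% of 5546 placed rows with at least 100 counts in every mouse. Within 1 Mb beyond their start 1 of 10 did, against 8.31%. These counts were made after the positions had been seen and are a description.

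Rows that fell as Col1a2 rose had a median spread above that of all well-measured rows. The 5 with the lowest r were Pnpla7 (-0.960), Garnl3 (-0.943), Gss (-0.940), Sectm1a (-0.938) and Usp48 (-0.933). Pnpla7, named for a lysophospholipase, held 146, 153 and 157 counts in BMT mice, 113, 119 and 130 in CDSCs mice, and 147, 139 and 190 in Health mice. In CPM the groups overlapped, with 14.8 in CDSCs mouse 3 above the 14.6 of Health mouse 2. Gss, the last enzyme of glutathione synthesis, ran from 888 counts in CDSCs mouse 1 to 1420 in Health mouse 3. Over all 21 rows the highest mouse exceeded the lowest 1.30-fold to 4.31-fold (median 2.35), against a median of 1.70 over all rows with at least 100 counts in every mouse and 101.1 for Col1a2. Without the pair of mice farthest from the median of Col1a2, 1 of the 5722 rows still had an r of at most -0.9.

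Genes that make, trim, bind and break down type I collagen were compared between groups in lists written from general knowledge. All 93 names had a row, but 48 had a mean under 10 counts and 17 were at 0 in all mice, and 48 held enough counts to be tested. The rows at 0 included Lox and Loxl2, which cross-link fibrils, Dcn, Lum and Fmod, which coat them, and Mmp2. In CDSCs against BMT, 1 of the 48 was higher and 1 lower by edgeR's quasi-likelihood test (4.17% of the list against 1.03% of all 12572 rows, of which 0.326% were higher and 0.7% lower). In CDSCs against Health, 8 were higher and 3 lower (22.9% against 17%, of which 8.69% were higher and 8.28% lower). In BMT against Health, 0 were higher and 1 lower (2.08% against 2.44%, of which 0.994% were higher and 1.45% lower), with 6 higher and 4 lower at an unadjusted p under 0.05, beside 8.12% and 8.72% of all rows. Which row was called changed with the scaling, although neither row changed direction. With library size only, Itga2 did not pass (log2 fold change -1.12 beside -1.20 with TMM, edgeR adjusted p = 0.0605). P4hb then passed as higher (0.71 beside 0.63 with TMM, edgeR adjusted p = 0.0444), where 2.31% of all rows passed. DESeq2 called 6, 12 and 5 rows in the 3 comparisons, where it called 5.62%, 21.6% and 5.64% of all rows. Of the 48, Adamts2 and Col2a1 met the count minimum only through CDSCs mice, and Adamts2 is 1 of the 8 higher against Health. The medians of their log2 fold changes were -0.01, -0.00 and -0.05, beside 0.01, -0.02 and -0.02 over all rows. CDSCs mice enter the first comparisons and Health mice the last ones, so these counts are not independent of each other.

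Fibrillar chains had the highest medians of the 6 lists in both comparisons with CDSCs mice. The list holds Col3a1 and Col5a2, which followed Col1a2 (r = 0.995 and 0.981), so this rank is not independent of the pattern for which Col1a2 was chosen. Of 10 rows 7 were tested, and their median log2 fold change was 1.26 in CDSCs against BMT, 1.63 in CDSCs against Health and 0.02 in BMT against Health. These medians include Col2a1, which was tested only because of its counts in CDSCs mice (1.42 and 1.04 in the first comparisons), and are a description. In CDSCs against Health 2 rose and 0 fell in edgeR, where 8.69% of all rows rose. In CDSCs against BMT 0 passed. There 6 were higher at an unadjusted p under 0.05, beside 9.82% of all rows. Col2a1, which met the count minimum only through CDSCs mice, is among these 6 and is not read as a result. DESeq2 called 1, Col11a2, higher, beside 2.94% of all rows. In BMT against Health 0 passed, with 1 higher at an unadjusted p under 0.05, beside 8.12% of all rows, and 1 (Col27a1) called by DESeq2, which called 5.64% of all rows. Col11a2, a chain of the thin fibrils of cartilage, held 9947, 11632 and 18886 counts in BMT mice, 50627, 23884 and 21013 in CDSCs mice, and 9557, 11550 and 7701 in Health mice. Each CDSCs mouse lay above every other mouse. It rose in CDSCs against Health (log2 fold change 1.63, standard error 0.32, edgeR adjusted p = 0.00848) and not past the threshold against BMT (1.26, edgeR adjusted p = 0.0894). Col11a2 is known from cartilage, and its row lies 196 kb beyond that of Cd320. Col27a1, another cartilage chain, held 24 to 66 counts in CDSCs mice and 3 to 8 in Health mice (log2 fold change 2.99, edgeR adjusted p = 0.00592). For Col3a1 the log2 fold change of CDSCs against BMT was 2.32 with a standard error of 1.03 (edgeR adjusted p = 0.262), and for Col5a2 it was 2.71 with a standard error of 1.08 (edgeR adjusted p = 0.222). In CDSCs against Health it was 2.66 and 2.73 (edgeR adjusted p = 0.106 and 0.112). Without CDSCs mouse 1 the values fell to 1.04 and 1.31 against BMT and to 1.38 and 1.33 against Health. Without Health mouse 2 or CDSCs mouse 3 both rows passed against Health (edgeR adjusted p from 0.0313 to 0.0486). Without a filter on low counts both passed against BMT and Health (edgeR adjusted p of 3.62e-25 and 7.48e-21 against BMT). There the log2 fold changes against BMT hardly moved (2.31 and 2.69). Values of p that small do not reflect the spread between 3 mice a group, so these passes are not read as a result.

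**Figure D5:**
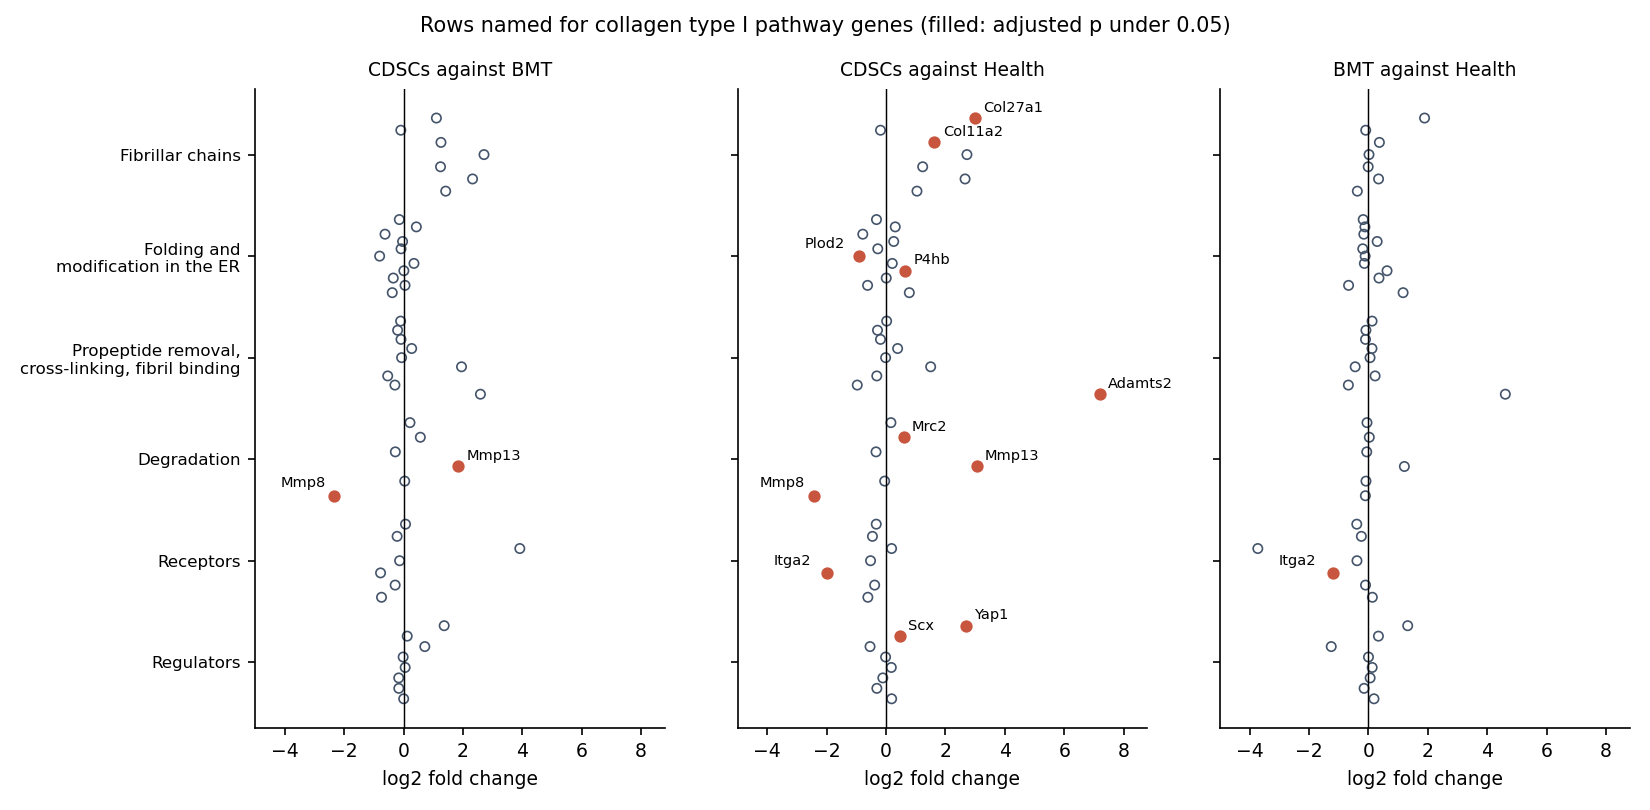
Log2 fold changes of the 48 tested rows named for genes of the collagen type I pathway in the 3 comparisons, grouped by role. Filled points have an adjusted p under 0.05 in edgeR's quasi-likelihood test (2, 11 and 1 rows), and the value of Adamts2 against Health is a fitted one against mice at 0 counts.

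Among 11 tested rows for folding and modification in the endoplasmic reticulum, P4hb, the disulfide isomerase that is also a subunit of prolyl hydroxylase, rose in CDSCs against Health (log2 fold change 0.63, edgeR adjusted p = 0.0153), and Plod2 fell (-0.92, edgeR adjusted p = 0.0363). The call of P4hb was lost without Health mouse 1 or 2 (edgeR adjusted p 0.0547 and 0.0696), and that of Plod2 without BMT mouse 1 or 2, CDSCs mouse 2 or 3, or Health mouse 1 or 2 (0.0507 to 0.127). P4hb had 446, 486 and 603 counts in BMT mice, 461, 521 and 520 in CDSCs mice and 290, 297 and 336 in Health mice. Its log2 fold change was 0.01 in CDSCs against BMT and 0.63 in BMT against Health (edgeR adjusted p = 0.051), so its level was alike in both kinds of recipient. Serpinh1, the collagen chaperone, and Crtap and Ppib, of the prolyl hydroxylation complex, had at most 10 counts in any mouse and are named for their role, outside the rule for named rows. Among the rows for propeptide removal, cross-linking and fibril binding, Adamts2, which cuts the N-propeptide, held 31, 13 and 12 counts in CDSCs mice and 0 in all Health mice. With 3 counts per library as the floor it was at least 5.78-fold higher, and since it entered the test only through CDSCs mice its call is not read as a result. In edgeR the other 8 tested rows of this list passed in 0 comparisons, where 1.03%, 17% and 2.44% of all rows passed. At an unadjusted p under 0.05, with Adamts2 counted, 2 of 9 rows were higher in CDSCs against BMT, beside 9.82% of all rows. In CDSCs against Health 1 was higher and 1 lower, beside 16.3% and 16.6%, and in BMT against Health 1 was higher, beside 8.12%. Loxl1, a cross-linking enzyme, held 2084 to 4932 counts.

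Rows for degradation moved in both directions. Mmp8, a collagenase of neutrophil granules, held 35765, 31974 and 17924 counts in BMT mice, 5696, 7925 and 3593 in CDSCs mice, and 22193, 27107 and 38523 in Health mice. All CDSCs mice lay below all others, with a log2 fold change of -2.33 against BMT (standard error 0.34, edgeR adjusted p = 0.0194) and of -2.43 against Health (standard error 0.34, edgeR adjusted p = 0.00191). Its r with Col1a2 was -0.66. Mmp13, a collagenase of cartilage and bone, held 224, 179 and 210 counts in BMT mice, 900, 479 and 778 in CDSCs mice, and 55, 142 and 53 in Health mice, and rose against BMT (1.84, edgeR adjusted p = 0.0446) and Health (3.05, edgeR adjusted p = 0.000864). In CPM it was 87.9, 48.6 and 88.5 in CDSCs mice 1 to 3, so that CDSCs mouse 3, with the least Col1a2 of its group, was as high as CDSCs mouse 1. Mrc2, the receptor that takes up cut collagen, rose against Health (0.59, edgeR adjusted p = 0.00936). Against BMT, the call of Mmp13 was lost without BMT mouse 1, 2 or 3, CDSCs mouse 1 or 2, or Health mouse 1 (edgeR adjusted p from 0.0531 to 0.177), and that of Mmp8 without BMT mouse 1 or 2 (0.0815 and 0.0865).

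Among receptors, Itga2, the integrin chain by which platelets bind collagen, fell in CDSCs against Health (log2 fold change -1.98, edgeR adjusted p = 0.00172) and in BMT against Health (-1.20, edgeR adjusted p = 0.0427), with 28 to 33 counts in CDSCs mice, 33 to 70 in BMT mice and 104 to 135 in Health mice. Its call in BMT against Health was lost without any BMT or Health mouse or CDSCs mouse 2 (edgeR adjusted p from 0.0649 to 0.152). Ddr1, Itga1, Itga10 and Lair1, which had at least 100 counts in every mouse, did not pass in any comparison. Among regulators, Scx, a transcription factor of tendon that acts on Col1a1 and Col1a2, rose in CDSCs against Health (0.46, edgeR adjusted p = 0.0458), as did Yap1, an effector of mechanical signals (2.69, edgeR adjusted p = 0.00899). The call of Scx was lost without BMT mouse 1, CDSCs mouse 2 or 3, or any Health mouse (edgeR adjusted p from 0.0566 to 0.145). Yap1 held 89, 37 and 35 counts in CDSCs mice and 8, 12 and 3 in Health mice. Tgfb1, Tgfbr1, Smad3 and Smad4, of the TGF-β pathway that acts on collagen genes, and Sp1 did not pass in any comparison.

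Rows of markers of the cells that make type I collagen were mostly empty. Of 10 osteoblast rows, 8 had a mean under 10 counts and 4, namely Sp7, Dmp1, Phex and Ifitm5, were at 0 in all mice, and their summed level was 6.19 to 8.02 CPM in BMT, 6.08 to 9.76 CPM in CDSCs and 4.19 to 6.01 CPM in Health (r of the sum with Col1a2 0.38). Of 12 fibroblast and marrow stroma rows, 6 (Pdgfra, Prrx1, Dcn, Lum, Dpt and Postn) were at 0 in all mice, and 9 had at most 3 counts in every mouse. Their summed level was 91.5 to 184.9 CPM in BMT, 123.3 to 289.4 CPM in CDSCs and 96.5 to 108.2 CPM in Health. It was highest in CDSCs mouse 1, as Col1a2 was, its r with Col1a2 was 0.77, and 61% of it came from Fap. Of their 5 tested rows, 0 were called by edgeR or DESeq2 in the 3 comparisons, where edgeR called 1.03%, 17% and 2.44% of all rows, and 1 had an unadjusted p under 0.05, in CDSCs against Health, where 16.3% of all rows were higher and 16.6% lower at that limit. A list of 5 rows is too short to read against these shares.

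The summed level of 8 chondrocyte rows was 10.4 to 22.3 CPM in CDSCs, with CDSCs mouse 1 lowest, 13.1 to 14.5 CPM in BMT and 16.9 to 47.0 CPM in Health, and its r with Col1a2 over the 9 mice was -0.73. Hapln1, a link protein of cartilage matrix, gave 67.6% of the sum (r = -0.87), and Sox9 was at 0 in all mice. Col2a1, the chain of type II collagen of cartilage, held 34, 20 and 16 counts in CDSCs mice, 7 to 11 in BMT mice and 6, 7 and 19 in Health mice. It met the count minimum only through CDSCs mice, so its comparisons are not read as a result. The other tested rows, Matn1 and Matn3, held 10 to 30 counts. Of 4 rows tested, edgeR called 0 in the 3 comparisons (1 higher in CDSCs against BMT and 1 lower in CDSCs against Health at an unadjusted p under 0.05), and DESeq2 called 1, Hapln1, lower in CDSCs against Health. Over all rows edgeR called 1.03%, 17% and 2.44%, 9.82% were higher in CDSCs against BMT and 16.6% lower in CDSCs against Health at that unadjusted limit, and DESeq2 called 21.6% in CDSCs against Health, so nothing is read from 4 rows.

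Markers of other cells also differed between mice. The summed level of 8 neutrophil rows was 1713 to 3874 CPM in BMT, 409.9 to 804.1 CPM in CDSCs and 2642 to 4060 CPM in Health, of which 99.9% was Mmp8, while S100a8 and Camp were at 0 in all mice. Ltf, lactoferrin of neutrophil granules, did not follow Mmp8, with 16, 14 and 11 counts in BMT mice, 5, 4 and 5 in CDSCs mice and 0, 1 and 0 in Health mice, and it met the count minimum only through BMT mice. That of 6 B-cell rows was 179.6 to 1644 CPM in CDSCs, with CDSCs mouse 1 highest, 247 to 678.2 CPM in BMT and 333.5 to 452.6 CPM in Health, with 81.5% of the sum from Pax5. Ebf1 of that list went with Pax5, with 237 counts in CDSCs mouse 1 and 26 to 86 in the other mice (r = 0.676). Ms4a1 held 0 to 8 counts, with 8 in CDSCs mouse 1. Cd79b and Cd79a went another way. Cd79b (r = -0.833) was lowest in CDSCs mouse 1, with 659 counts against 781 to 846 in the other mice. Cd79a held 27, 25 and 35 counts in CDSCs mice and 55 to 79 in BMT mice, a difference called by DESeq2 and not by edgeR (adjusted p = 0.0957). Ptprc, which encodes CD45, had 96.9 to 110.5 CPM in BMT, 65.5 to 91.1 CPM in CDSCs and 129.1 to 157.7 CPM in Health. In Health mouse 2, the Health mouse with high Col1a2, the 8 erythroid rows summed to 322.6 CPM, above the 70.2 and 112.1 CPM of the other Health mice, and Hba-a1 alone gave 82.9% of it. Without Hba-a1 the sum was 41.8 to 55.3 CPM in the 3 Health mice, and Hba-a2 held 25, 23 and 19 counts in Health mice 1 to 3. The part of cell composition in the level of Col1a2 was not tested.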

How the data were processed

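Per the labels and the methods, poly(A) RNA of BM from 9 mice was sequenced. The authors trimmed reads with Trim Galore, checked them with FastQC and MultiQC, aligned them to GRCm38 with HISAT2 (submitters' processing notes) and counted them per gene with featureCounts, with no annotation or strand setting given in the sources used here. The deposited counts are whole numbers, not normalized, and the authors derived the deposited TPM from them. The rows with no gene name number 0, and the tables hold 0 other columns of per-sample values.

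Counts were scaled with TMM (edgeR 4.0.16, R 4.3.3), and CPM use these library sizes. Level and likeness (log2(CPM + 1), pseudocount 1, at least 100 counts in every mouse) carry no test. Groups were compared with glmQLFit and glmQLFTest on all 9 mice, group as the only factor, filterByExpr (12572 rows), two-sided, with Benjamini-Hochberg adjusted p under 0.05. Nothing says more of the mice than that they are separate samples, so p-values measure the spread between these samples. Those of the fit without a filter on low counts are not read that way. Positions are from GENCODE M21, in which 95.3% of row names were found. Python 3.11.15, numpy 2.4.6, pandas 2.3.3, scipy 1.17.1 and matplotlib 3.10.9 were used.

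Rows named are Col1a2, the 10 highest and 5 lowest by r, the 3 nearest genes on each side, and list members with at least 100 counts in every mouse or among the 3 lowest p-values. Other rows were named for their role or after their values were seen. The rows, lists and tests were chosen with earlier results of these data known. On simulated counts with 200 rows changed 3-fold in CDSCs against BMT (12572 rows, 12259 tested), the test recovered 58.5%, and 4.88% of its calls were false. The alternatives were DESeq2 1.42.0, other scalings, filters and measures of likeness, the replicate number as a block, only the 6 mice compared, and each mouse left out.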

Additional observations from a re-analysis of the deposited data

How the results depend on the processing

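With 3 mice a group and a level set by single mice, neither a difference between groups in Col1a2 nor its absence can be read from these data. The names of rows carry the doubt given above, and those at the start of chromosome 6 were not tested either.

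The log2 ratio of BMT over Health (-0.11) was 0.026 with library size only, 0.056 with deposited TPM and 1.64 with medians, and without 1 mouse it ran from -0.83 to 2.46. For CDSCs over BMT leaving out a mouse gave 1.33 to 3.46, and for CDSCs over Health 1.22 to 5.19. The 8 rows with an r of at least 0.9 became 5 with Spearman's rho, 102 on CPM without log, 14 with at least 20 counts in every column, 15 with a mean of at least 100 counts and 16 with group means subtracted, and 7 to 57 without 1 mouse. The 21 rows with an r of at most -0.9 became 32, 33 and 37 with Spearman's rho, at least 20 counts and group means subtracted, 1 without the mice farthest from the median, and 2 to 237 without 1 mouse. Itga3 and G3bp1 were among the 3 highest rows in every setting run.

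Of the pathway rows, 2 (CDSCs against BMT), 11 (CDSCs against Health) and 1 (BMT against Health) were called in edgeR. DESeq2 called 6 and 5 in the first and last (5.62% and 5.64% of all rows), and without a filter on low counts edgeR called 12, 17 and 7 (4.46%, 10.9% and 3.36% of 28221 rows). The calls without a filter carry the limit given above for Col3a1 and Col5a2. With only the 6 mice compared, 0 and 2 were called in CDSCs against BMT and BMT against Health (0.0581% and 6.77% of all rows), and with DESeq2 size factors 2 in BMT against Health. Without 1 mouse the counts ran from 0 to 3, from 8 to 15 and from 0 to 2, beside 0.0152% to 3.74%, 8.13% to 20.5% and 0.777% to 5.28% of all rows. Same-numbered mice are different animals. Their deviations from the group means correlated from -0.40 to 0.27, and those of mice with different numbers from -0.47 to 0.48. With 3 mice a group these values cannot decide whether same-numbered mice shared a batch or litter, and the labels give none. With the replicate number as a block the counts were 0, 9 and 0, and 22, 1507 and 197 over all rows. Why these counts moved was not tested.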
